A study of Mus musculus with 6 samples.

Results

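Natural killer (NK) cells made up 274 of the 32953 CD45+ cells of inflamed mouse joints that were analyzed here, or 0.831% (95% Wilson interval 0.739 to 0.935%). A cell was counted as an NK cell when at least 2 of the 4 genes Ncr1, Klrb1c, Gzma and Prf1 had a count of 1 or more, the counts of Cd3d, Cd3e and Cd3g together were below 2, and Csf1r was at 0. Ncr1 encodes the activating receptor NKp46, Klrb1c encodes NK1.1, Gzma encodes granzyme A and Prf1 encodes the pore-forming protein perforin. The Cd3 genes encode the signaling chains of the T cell receptor, and Csf1r encodes the growth factor receptor of macrophages. The cells were thus chosen by the measured counts of these 8 genes, whose levels are given as a description and were not tested.

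The cells came from C57BL/6 male mice, bought at 8 weeks of age, with antigen-induced arthritis, in which mice immunized with methylated bovine serum albumin in complete Freund's adjuvant receive the same antigen in the knee on day 21. From that day the mice were injected intraperitoneally with vehicle (PBS, 2 samples) or with 300 μg of PEPITEM (4 samples). PEPITEM is a peptide that limits leukocyte trafficking. The isolated joints were digested 3 days after the challenge, and cells were sorted for CD45, a surface protein of all leukocytes. Whether a cell came from the synovium or from other tissue of the joint was not measured. No untreated joint was among these samples, and no transgene was used. The barcodes of the cells end in a library number from 1 to 6 that no source used here links to a sample, so vehicle and PEPITEM were not compared, and the 6 libraries are described as libraries of unknown treatment. NK cells and the cells they are compared with were chosen by counts of the same cells, so differences between them are given without a test, and intervals cover counting error only.

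NK cells are innate lymphocytes that kill infected, transformed or stressed cells without a rearranged antigen receptor. They weigh signals from activating receptors against signals from inhibitory receptors for major histocompatibility complex class I, and they release granules with perforin and granzymes or secrete interferon-γ and chemokines when activation prevails. In mice the receptors of the Ly49 family (Klra genes) and the NKG2 and CD94 family (Klrc, Klrk and Klrd genes) lie side by side in the NK gene complex on chromosome 6. In arthritic joints NK cells are known as a small population beside neutrophils, macrophages and lymphocytes.

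The regulatory sequence before the start of 5 NK genes is shown because these genes were at high levels in these cells and because Runx3, Eomes and Tbx21, which encode DNA-binding factors known from NK cells, were transcribed in them. Each sequence holds the 250 bases before the start of the gene in RefSeq (GRCm38.p6), written 5′ to 3′ on the strand of the gene. Capitals mark 6-letter words on either strand: TGTGGT or ACCACA, a core read by Runx factors, TCACAC or GTGTGA, a core read by T-box factors such as Eomes and T-bet, and ACTTCC or GGAAGT, a core read by Ets factors. The 5 regions are chr7:4337465-4337714 (plus strand) for Ncr1, chr10:61297586-61297835 (plus strand) for Prf1, chr14:56262335-56262584 (minus strand) for Gzmb, chr6:130067272-130067521 (minus strand) for Klra4 and chr6:130129899-130130148 (minus strand) for Klra8.
Ncr1: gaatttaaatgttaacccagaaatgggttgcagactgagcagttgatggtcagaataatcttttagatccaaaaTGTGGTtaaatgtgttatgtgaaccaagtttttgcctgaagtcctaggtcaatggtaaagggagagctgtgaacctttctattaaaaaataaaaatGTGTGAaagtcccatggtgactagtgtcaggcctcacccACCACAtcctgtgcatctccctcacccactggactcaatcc
Prf1: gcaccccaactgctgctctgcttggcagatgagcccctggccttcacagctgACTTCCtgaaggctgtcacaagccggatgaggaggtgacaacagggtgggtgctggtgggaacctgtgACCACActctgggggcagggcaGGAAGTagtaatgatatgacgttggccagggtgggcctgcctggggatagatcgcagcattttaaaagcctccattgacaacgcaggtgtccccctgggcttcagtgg
Gzmb: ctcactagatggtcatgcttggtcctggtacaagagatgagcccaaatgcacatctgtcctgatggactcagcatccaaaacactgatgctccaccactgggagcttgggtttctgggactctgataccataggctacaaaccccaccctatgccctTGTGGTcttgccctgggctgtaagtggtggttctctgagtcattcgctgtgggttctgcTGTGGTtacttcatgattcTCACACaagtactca
Klra4: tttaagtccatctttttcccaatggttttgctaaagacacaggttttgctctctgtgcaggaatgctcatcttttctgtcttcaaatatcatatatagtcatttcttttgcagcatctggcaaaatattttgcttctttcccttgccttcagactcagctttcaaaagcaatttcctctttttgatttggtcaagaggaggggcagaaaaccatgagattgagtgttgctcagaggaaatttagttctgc
Klra8: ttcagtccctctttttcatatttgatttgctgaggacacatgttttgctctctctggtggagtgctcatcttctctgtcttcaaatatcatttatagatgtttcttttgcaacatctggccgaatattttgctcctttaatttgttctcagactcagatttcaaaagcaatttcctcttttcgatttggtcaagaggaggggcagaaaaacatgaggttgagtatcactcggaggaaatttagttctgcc

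The Ncr1 and Gzmb sequences held 2 Runx words and 1 T-box word each, and the Prf1 sequence held 1 Runx word and 2 Ets words. None of these letters were found in the windows of the Ly49 genes Klra4 and Klra8, which shared 84.5% of their aligned bases with each other. Of the 27025 genes with a RefSeq entry, 14.2% had a Runx word in the same window, 12.2% a T-box word and 19.99% an Ets word. Among the 16 genes made up of the 4 rule genes and 12 identity genes described below, 11 had an entry, of which 7 held a Runx word, 3 a T-box word and 4 an Ets word. Of the 13 Ly49 genes listed, 11 had an entry, of which 1 held a Runx word. The words were matched by letters alone, and no binding was measured.

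NK cells were found in all 6 libraries, which held 38, 72, 51, 36, 42 and 35 of them in the order of the library numbers. They formed 1.14% of the cells in library 1 (0.829 to 1.56%), 1.24% in library 2 (0.985 to 1.56%), 1.75% in library 3 (1.33 to 2.29%), 0.901% in library 4 (0.651 to 1.24%), 0.449% in library 5 (0.333 to 0.607%) and 0.464% in library 6 (0.334 to 0.645%). The share was lowest in libraries 5 and 6, whose intervals overlapped each other and none of the other libraries, and neighbors in the order among libraries 1 to 4 overlapped in their intervals. Libraries 5 and 6 also held the most cells (9345 and 7539, against 2919 to 5809 in the others). As a share of cells with S100a8 and S100a9, the main neutrophil transcripts, below 1% of their UMIs, NK cells were 1.48% of all such cells and 0.940 to 2.38% by library, with libraries 5 and 6 again lowest. A lower share of NK cells and a higher number of other cells in a library cannot be told apart in these data. NK cells were about as numerous as CD8 T cells (280 cells with a Cd3 count of 2 or more and Cd8a or Cd8b1, and with Cd4, Trdc and Csf1r at 0), with 0.686 to 1.33 NK cells per CD8 T cell by library.

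**Figure D1:**
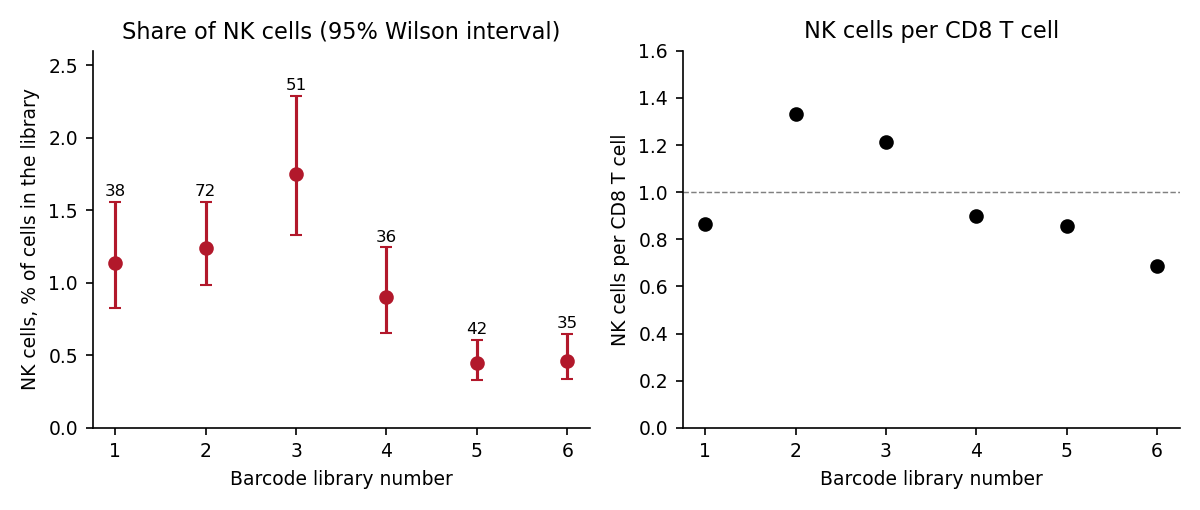
Share of NK cells among the cells of each library in percent with 95% Wilson intervals and the number of NK cells above each (left), and NK cells per CD8 T cell in each library (right), with a dashed line at 1. The share is lowest in libraries 5 and 6 (0.449% and 0.464%) and highest in library 3 (1.75%), while the number of NK cells per CD8 T cell stays between 0.686 and 1.33.

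The label was set beside 12 genes of NK identity that the rule did not use: Nkg7, Klre1, Klrd1, Klrk1, Eomes, Tbx21, Il2rb, Ctsw, Txk, Tyrobp, Fcer1g and Ccl5. These genes were chosen with earlier results of these data known, so they describe the label and do not test it. NK cells had a median of 11 of the 12 with at least 1 UMI (a tag that counts 1 RNA molecule), and 250 of the 274 cells (91.2%) had 10 or more. A single cell, in library 6, had only 2 of the 12, with 1 UMI each of Prf1 and Klrb1c among 14041 UMIs. The 142 cells with 1 of the 4 rule genes, just outside the rule, had a median of 1 identity gene, and 7 of them had 10 or more. By contrast, the 119 cells that had 2 or more rule genes and were left out for a Cd3 count of 2 or more had a median of 11 identity genes together with a median of 4 of 12 T cell genes, against 1 in NK cells, and 15.97% of them had Cd8a or Cd8b1. A further 11 cells with 2 or more rule genes were left out for Csf1r alone, with a median of 26586 UMIs. The 280 CD8 T cells had a median of 7 identity genes, and 62 of them (22.1%) had 10 or more. The 196 cells with a Cd3 count of 2 or more and Trdc, without Csf1r, had a median of 6, and 57 (29.1%) had 10 or more. The 12 genes are thus shared in part with these T cells. Within the rule, 138 cells had all 4 genes, 92 had 3 and 44 had 2. Of 138 barcode sequences that occurred in more than 1 library, 1 belonged to an NK cell.

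**Figure D2:**
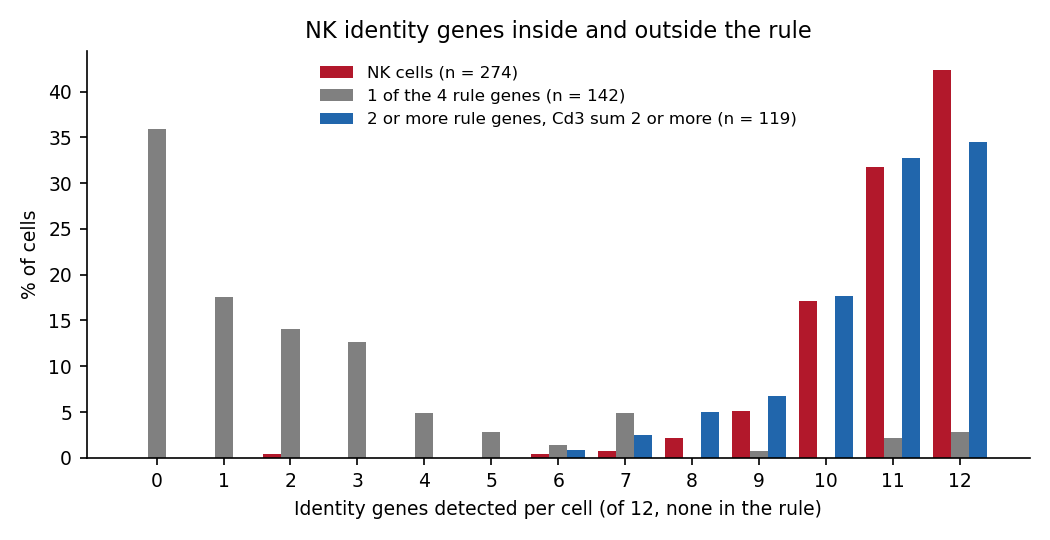
Number of 12 identity genes with at least 1 UMI per cell, as percent of the cells of each population, for the 274 NK cells, the 142 cells with only 1 rule gene and the 119 cells with a Cd3 count of 2 or more. NK cells and the cells with Cd3 lie mostly at 10 to 12 genes, with a median of 11 each, and the cells with 1 rule gene have a median of 1.

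The NK cells held 3025625 UMIs in all, with a median of 8490.5 UMIs and 2761.5 genes per cell, and the median per library ranged from 6473 UMIs in library 5 to 10634.5 in library 1. Levels are given below in CPM, the UMIs of a gene scaled to the summed UMIs of the population, which for 3′ end counts needs no scaling by gene length, and 3 counts correspond to 0.992 CPM in all NK cells and to 3.49 to 8.78 CPM in those of a library.

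A small part of the cells carried RNA of another cell type. In 8 NK cells from libraries 2, 4, 5 and 6, the 10 neutrophil genes examined took up 1.14 to 39.1% of the UMIs, against at most 0.0712% in every other NK cell, and in 6 NK cells from libraries 1 to 4 the 10 B cell genes took up 0.445 to 1.81%, against at most 0.136%. These 14 cells had 7 or more identity genes each and were deeper, with medians of 18888 and 15934.5 UMIs, against 8365 in the others. They held nearly all of the neutrophil signal. S100a9, the most abundant neutrophil gene, reached 5931 CPM in the pooled NK cells with UMIs in 2.92% of them, and the 10 genes together fell from 15291 CPM to 8.81 CPM when the 14 cells were left out, while those of the B cell list fell from 527 to 75.6 CPM. By library the neutrophil genes ranged from 2.08 to 48469 CPM with a median of 4160 CPM. These 14 cells are 5.11% of the NK cells. Genes of other cell types were low. The 10 monocyte and macrophage genes summed to 303 CPM without the 14 cells, of which Ccr2, which NK cells also transcribe, made up 249.6 CPM, with Csf1r at 0 by the rule. The 8 mast cell and basophil genes summed to 79.7 CPM, of which Cma1 made up 77.7 CPM, with Mcpt4, Fcer1a and Prss34 at 0. Genes of red cells and fibroblasts summed to 5.62 CPM. The 10 dendritic cell genes fell from 220.5 to 88.1 CPM and the 7 precursor genes from 378 to 62.4 CPM without the 14 cells. The genes of type 3 innate lymphoid cells summed to 37.0 CPM and those of type 2 to 281 CPM, of which Rora made up 181 CPM.

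Of the T cell genes that the rule did not use, Cd4, Cd8a, Cd8b1, Cd5 and Themis were at 0 in all 274 cells, which allows at most 0.992 CPM each. Trac, the constant part of the T cell receptor α chain, had 14.9 CPM in NK cells and 391 CPM in CD8 T cells. Not all T cell receptor transcripts were low. Trbc1, a constant part of the β chain, was found in 82.1% of NK cells (77.1 to 86.2%) at 320 CPM, against 446 CPM in CD8 T cells and 0.153% of B cells. Thinned to 2000 UMIs per cell, Trbc1 was found in 44.9% of 272 NK cells and 39.1% of 279 CD8 T cells. Trdc, the constant part of the δ chain, was found in 30.7% at 44.3 CPM, against 1063 CPM in 196 Cd3-positive cells chosen for Trdc, called gamma-delta type T cells here. T cell receptor constant regions are known to be transcribed from unrearranged genes in innate lymphocytes, and 3′ counts do not show whether a chain was rearranged.

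Genes of the cytotoxic granule were among the most abundant transcripts of the lists. Gzma, a rule gene, was the most abundant granule gene, with 3644 CPM over all NK cells and 4149.9, 3242, 2562, 5558, 3861 and 3407 CPM in libraries 1 to 6. All 6 libraries lay above the highest library of CD8 T cells, which had 445 CPM. The granule gene Nkg7, which controls the exocytosis of lytic granules, had 1671 CPM and was found in 99.6% of the cells. Granzyme B, encoded by Gzmb, was lower and more uneven. Gzmb had 670.5, 317, 476, 802, 977 and 445 CPM in libraries 1 to 6 and UMIs in 72.6% of the cells (67.1 to 77.6%), and these values overlapped those of CD8 T cells, which ranged from 62.0 to 1534 CPM by library. Prf1, also a rule gene, had 187 CPM and a range of 130.5 to 287 CPM, against 6.50 to 26.0 CPM in CD8 T cells. Granzyme C (Gzmc) had 103 CPM but UMIs in only 6.93% of the cells, and the level rested on few cells, of which the highest held 225 UMIs, so that libraries ranged from 1.16 to 508 CPM. Other granzymes were rare, with 8.26 CPM for Gzmm, 6.28 CPM for Gzmk and 1.32 CPM for Gzme. Cma1, a protease otherwise known from mast cells, was found in 27.0% of NK cells.

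Inhibitors that protect a cell from its own granzymes were also transcribed. Serpinb9, the inhibitor of granzyme B, had 585 CPM, with 479.8 to 662 CPM by library, and Serpinb6b had 519 CPM, with 445 to 568 CPM. In CD8 T cells the same genes reached at most 135 and 142 CPM in any library, so the libraries did not overlap. Serpinb9b had 43.0 CPM in NK cells and was at 0 in CD8 T cells, at least 47.0-fold lower against a floor of 3 counts over all CD8 T cells. The machinery of granule release (Lyst, Vamp8, Stx11, Rab27a, Stxbp2 and Unc13d) was present at 34.0 to 230.4 CPM. Of the ligands of death receptors, Fasl was found in 75.2% of the cells at 161 CPM, and Tnfsf10, which encodes TRAIL, in 15.3% at 28.1 CPM.

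NK cells were compared gene by gene with the CD8 T cells of the joint, among the 6443 genes with at least 20 CPM in either. A gene was called higher or lower when its pooled level plus 1 CPM differed at least 2-fold and each of the 6 libraries pointed the same way. By this rule 367 genes (5.70%) were higher in NK cells and 221 (3.43%) were lower, with a median log2 difference of 0.13 over all genes examined. No test was run, and genes used to define either population are part of these counts. Cells left out of the NK cells for a Cd3 count of 2 or more were not removed from the CD8 T cells. Of the 12 identity genes, 7 were higher (Nkg7, Tyrobp, Fcer1g, Klre1, Klrd1, Eomes and Tbx21) and none lower, with a median log2 difference of 1.08. Of the 13 granule genes examined, 4 were higher (Gzma, Nkg7, Ctsd and Prf1) and 2 lower (Gzmm and Gzmk), with a median of 0.74. Gzma and Prf1 had chosen the NK cells, so their part in this count and median follows from the rule. Of the 4 granzyme inhibitors, 3 were higher, with a median of 2.42, and of the 6 genes of granule release none was called in either direction, with a median of 0.49. Of 15 T cell genes that could be examined, 13 were lower, among them the Cd3 and Cd8 genes that had chosen the populations. Of the other two, Trbc1 was not called, and Trdc was higher, being at 0 in the CD8 T cells by their definition. Of the remaining lists, 3 of 7 inhibitory receptors were higher and 1 lower (median 0.62), 4 of 7 Ly49 genes were higher and 1 lower (2.53), and of 4 death ligands 1 was lower and none higher (-0.75). Of 14 adhesion genes 6 were higher and 1 lower (0.54), of 8 genes of mature NK cells 5 were higher and 1 lower (1.72), and of 9 genes of immature NK cells 1 was higher and 3 lower (-0.69). Of 9 glycolysis genes and 9 cell cycle genes, 1 each was higher and none lower. Medians were the same to 2 decimals when genes at 0 in a population were held at 3 counts.

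Genes outside the lists were also among those farthest from CD8 T cells. The 10 genes with the largest difference above CD8 T cells among those with 50 CPM or more were Klra8, Klra4, Ncr1, Car2, Eya1, Adamts14, Klri2, Cdk14, Klrb1b and Kcnk10. Car2, which encodes a carbonic anhydrase, had 296 CPM in NK cells and 1.22 CPM in CD8 T cells, and Adamts14, a protease of procollagen, had 162 and 1.22 CPM and was found in 70.8% of NK cells. Eya1 had 129 CPM and was at 0 in CD8 T cells, but had 109 CPM in B cells and 68.8 CPM in type 2 innate lymphoid cells. Cdk14 had 177 CPM against 2.13 CPM in CD8 T cells and 121 CPM in all other cells. The 10 genes farthest below CD8 T cells were Themis, Cd8b1, Cd3e, Cd8a, Cd3g, Cd5, Gm44174, Dapl1, Cd3d and Cd6, of which the Cd3 and Cd8 genes had chosen the populations. Themis, a signaling protein of the T cell receptor, was at least 590-fold lower in NK cells (0 against 585 CPM). Over all other cells of the joint, the largest folds were those of Gzma, Klra4, Klra8, Ncr1, Prf1, Eomes and Klrb1c, in that order, of which Gzma, Ncr1, Prf1 and Klrb1c had chosen the cells. The leading genes outside the lists were Adamts14 (80.4-fold), Samd3 (45.2-fold), Sh2d2a (44.7-fold), Sult2b1 (43.0-fold) and Klf12 (31.1-fold), while the long noncoding transcript AW112010 was the most abundant of the 20, with 2359.5 CPM in NK cells and 91.9 CPM in the other cells.

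**Figure D3:**
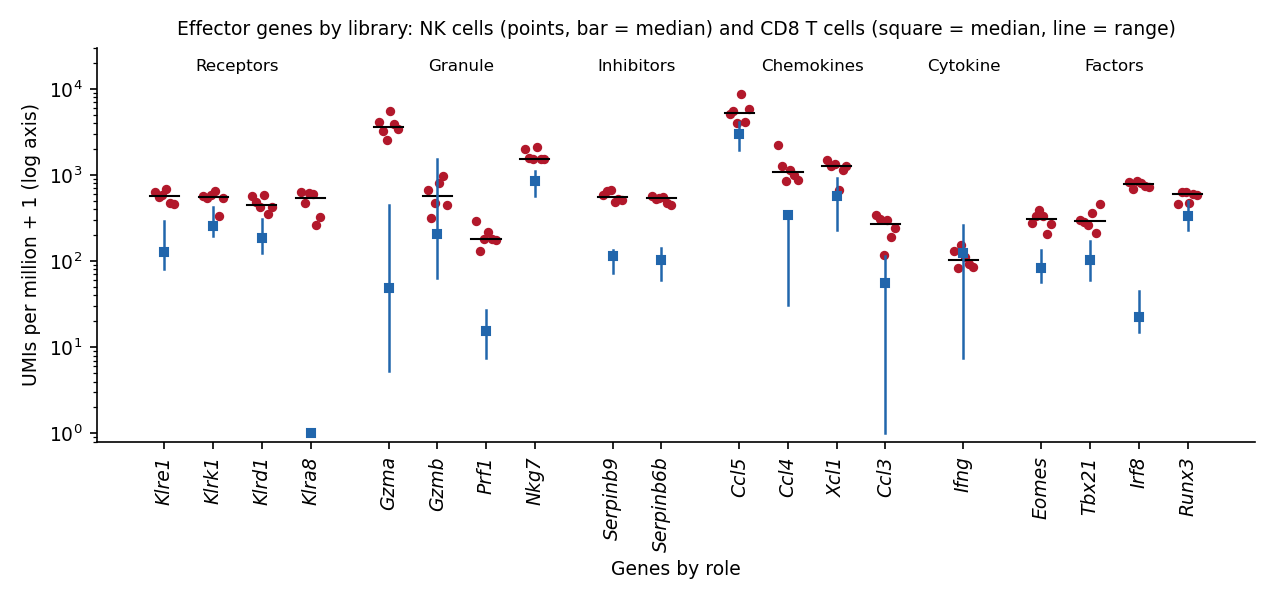
Levels of 19 effector genes in CPM plus 1 on a log axis, with the 6 libraries of NK cells as points and their median as a bar, and the median and range of the 6 libraries of CD8 T cells as a blue square and line. NK cells lie above the whole range of CD8 T cells for Gzma, Prf1, Serpinb9, Serpinb6b, Irf8 and Klra8, and within or across it for Gzmb and Ifng. Gzma and Prf1 had chosen the NK cells.

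Most of the receptor genes of the NK gene complex were transcribed in these cells. Of 23 Klr genes of the lists between 128609227 and 131247362 on chromosome 6 (GRCm38, GENCODE vM21), 16 reached 50 CPM in NK cells, against 7 in CD8 T cells, and together they had 4475 CPM in NK cells, 1269 CPM in CD8 T cells, 1492 CPM in gamma-delta type T cells and 70.6 CPM in the 114 cells chosen as type 2 innate lymphoid cells (ILC2). Klre1 (564 CPM, found in 93.8% of cells) and Klrk1, which encodes NKG2D (534 CPM, 94.9%), led the genes listed here with the activating receptors. Their libraries lay at 459 to 687 and 335 to 649 CPM. Klrd1, which encodes CD94, the partner of the NKG2 chains, had 469 CPM. Among these partners, the inhibitory Klrc1 (NKG2A) was found in 137 of the 274 cells at 205 CPM and the activating Klrc2 (NKG2C) in 69.7% at 171 CPM. Klri2, a partner of Klre1 listed here with the activating receptors, had 250 CPM in NK cells and 3.05 CPM in CD8 T cells. Of the 14 activating receptor genes examined, 7 were higher than in CD8 T cells and 1 (Slamf6) was lower, beside 5.70% and 3.43% of all genes, and the higher genes include Ncr1 and Klrb1c, which had chosen the NK cells. Fcgr3, which encodes the Fc receptor CD16, was found in only 17.2% of NK cells (31.1 CPM, and 21.3 CPM without the 14 cells with RNA of another type). Pdcd1 had 1.32 CPM in NK cells against 31.4 in CD8 T cells and 124 in gamma-delta type T cells, and Lag3 had 1.65 CPM. Cd96 was found in 25.5% of NK cells at 32.7 CPM, against 51.8 CPM in CD8 T cells, and was not called.

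The Ly49 genes were read unevenly along their part of the cluster. Klra4 (Ly49D, an activating receptor) had 529, 553, 449.8, 676, 294 and 402 CPM in libraries 1 to 6, and Klra8 (Ly49H, the activating receptor for a cytomegalovirus protein) had 635, 467, 621, 599.7, 259 and 321 CPM. Both were lowest in library 5. Klra7 (Ly49G, inhibitory) followed with 311 CPM, Klra9 (Ly49I) with 193 CPM and Klra3 (Ly49C) with 110.4 CPM and Klra1 (Ly49A) with 51.2 CPM, whereas Klra5, Klra6, Klra10, Klra2 and Klra17, between or beside them, had 0.992 to 7.27 CPM. Klra8 was at 0 in CD8 T cells, where Klra7 reached 175 CPM, Klra1 61.3 CPM and Klra6 46.9 CPM, so the most abundant Ly49 genes were not the same in both populations. Klra3 and Klra9 share 98.7% of the last 300 bases of their longest coding transcripts, the part that 3′ counts read, so that their counts may be exchanged and their separate levels are uncertain. Klra5 and Klra6 share 86.6%, Klra6 and Klra8 share 85.7%, and Klra5 and Klra8 share 83.8%. Klra1 and Klra4 share 83.2%, and Klra3 and Klra8 share 80.3%.

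NK cells differed in the number of Ly49 genes detected. Of 11 genes in the table, the median NK cell had UMIs of 3, 201 cells (73.4%) had 2 or more, the highest had 7, and 46 cells (16.8%, 12.8 to 21.7%) had none. Thinned to 2000 UMIs per cell, the median was 2. Of the 32 possible combinations of Klra3, Klra4, Klra7, Klra8 and Klra9, 29 were found among the 274 cells. Klra8 and Klra4 were found together in 97 cells (35.4%), where the product of their separate shares would give 25.9%, and Klra8 and Klra7 in 107 cells (39.1%, product 31.6%). Klra9 and Klra3 were found together in 12.04% with a product of 11.8%. These shares are a description across cells of differing depth, which by itself raises shared detection. CD8 T cells had none of the 11 genes in 64.3% of cells and B cells in 89.99%.

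**Figure D4:**
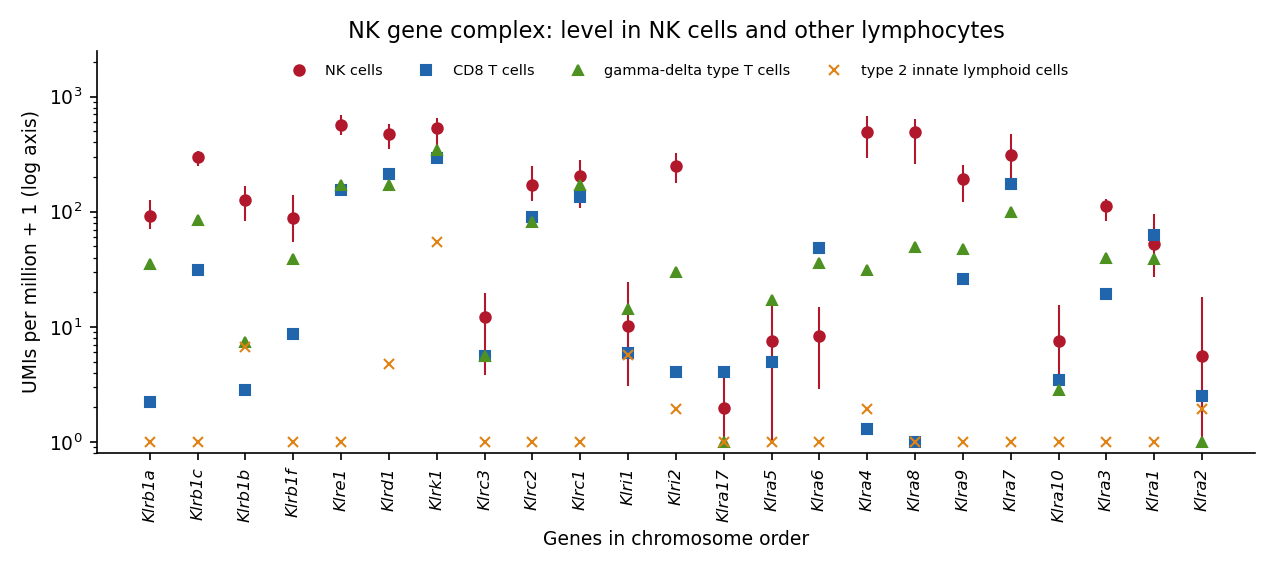
Level of 23 Klr genes in chromosome order, in CPM plus 1 on a log axis, for NK cells (red point, with the range of the 6 libraries as a line), CD8 T cells (blue square), gamma-delta type T cells (green triangle) and type 2 innate lymphoid cells (orange cross). At Klre1, Klri2, Klra4 and Klra8 NK cells lie above all other populations shown, while the pooled level of 7 of the 23 genes is below 20 CPM in them.

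The 4 chemokines detected were found at 252 to 5342 CPM. Ccl5, which encodes a chemokine that attracts leukocytes, had 5076, 5468, 4018, 8662, 4068 and 5824 CPM in libraries 1 to 6 and was found in 94.9% of the cells. Ccl5 was 3014 CPM in CD8 T cells, with 1927 to 4154 CPM by library, so that it was not called as 2-fold different. Ccl4 had 1248 CPM (856 to 2240.5 by library), Xcl1, which attracts cross-presenting dendritic cells, 1231 CPM (664 to 1499) and Ccl3 252 CPM (118 to 344). These 3 of the 4 chemokines examined were higher than in CD8 T cells, beside 5.70% of all genes, and the 4 had a median log2 difference of 1.62.

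Interferon-γ transcripts were found in a minority of the cells. Ifng had 131, 81.5, 154, 111, 90.7 and 84.4 CPM in libraries 1 to 6, and 109 of the 274 NK cells (39.8%, 34.2 to 45.7%) had a UMI. B cells, which should lack the gene, had a UMI in 1.14% of cells at a median of 5930.5 UMIs per cell, against 8490.5 in NK cells. At 2000 UMIs per cell the shares were 17.3% of 272 NK cells and 0.447% of 5823 B cells, with 2 and 39 cells too shallow. CD8 T cells had a UMI in 21.1% of cells (9.68% at 2000 UMIs) but a higher level, 120 CPM against 107 CPM in NK cells, so no order between them is read from these shares. Among NK cells with an Ifng UMI, 39.4% had Ccl3 (30.8 to 48.8%), against 27.9% (21.6 to 35.2%) of those without, and 69.7% against 64.2% had Ccl4, with overlapping intervals for both. At 2000 UMIs per cell, 27.7% of 47 NK cells with Ifng and 16% of 225 without had Ccl3, and 61.7% and 42.2% had Ccl4. For Xcl1 and Tnf the direction changed with depth. Xcl1 was found in 81.7% with Ifng and 73.3% without at full depth, and in 55.3% and 60% at 2000 UMIs. Tnf was found in 10.1% with Ifng and 13.3% without at full depth, and in 4.26% and 3.56% at 2000 UMIs. Other cytokines were scarce. Tnf was found in 12.04% of NK cells, Csf2, which encodes GM-CSF, in 2.92%, and Il22 and Il17a were at 0. Tgfb1, widely transcribed in leukocytes, had 399 CPM and was higher than in CD8 T cells.

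Receptors for the cytokines that drive NK cells were well represented. Il12rb2, the signaling chain of the interleukin-12 receptor, had 486 CPM (342 to 764 by library) and UMIs in 88.0% of cells, and Il18rap had 348 CPM and Il18r1 319 CPM. Il2rb, shared by the receptors of interleukin-2 and interleukin-15, had 474 CPM. Of 13 cytokine receptor genes examined, Il12rb2, Il18rap and Il10ra were higher than in CD8 T cells (median 0.04, beside 5.70% higher and 3.43% lower over all genes), whereas Il7r (32.4 against 225 CPM) and Il21r (94.9 against 266 CPM) were lower. Il2ra, the high affinity chain for interleukin-2, was found in 15.3% of cells. Of the trafficking receptors, Cxcr4 had 269 CPM and Ccr2 had 241 CPM (155 to 355 by library), and Ccr2 was above all libraries of CD8 T cells, which had 40.0 to 101 CPM. Of 8 trafficking receptors examined, Ccr2 was higher than in CD8 T cells and Ccr7, S1pr1, Cxcr3 and Cxcr6 were lower, with a median of -0.66. S1pr5 was found in 9.85% of cells, and Cx3cr1 in 12.8%. The integrins Itga2 (CD49b, 263 CPM), Itga4 (546 CPM) and Itgb1 (541 CPM) were higher than in CD8 T cells.

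Transcription factors of the NK lineage were present in most cells. Eomes had 277, 333, 391, 333.5, 203 and 270.1 CPM in libraries 1 to 6 and UMIs in 76.3% of cells, and Tbx21, which encodes T-bet, had 302 CPM and UMIs in 82.8%. Irf8 was the most abundant of the 21 factors, with 759 CPM (678 to 847 by library) against 24.4 CPM in CD8 T cells, and all libraries lay above the highest of CD8 T cells at 44.5 CPM. Id2, Runx3 and Ets1 had 579, 576 and 514 CPM. Of 17 factors examined, 7 were higher (Irf8, Id2, Zeb2, Eomes, Tbx21, Bhlhe40 and Prdm1) and 2 lower (Ikzf2 and Tcf7), with a median of 0.51, beside 5.70% higher and 3.43% lower over all genes. Of 17 signaling adaptors examined, 6 were higher than in CD8 T cells and 2 lower, with a median of 0.06. Tyrobp, which encodes DAP12, had 1501 CPM (1221 to 1925 by library) against 44.8 CPM, and Fcer1g 1167 against 103 CPM, whereas Lat had 23.8 against 173 CPM. Hcst (DAP10), Cd247 (CD3ζ) and Fyn were not called in either direction.

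Set beside gamma-delta type T cells, 193 of 6525 genes (2.96%) were higher in NK cells and 298 (4.57%) were lower by the same rule. Cells with 2 or more rule genes were not removed from this group, and 34.5% of the 119 cells left out for Cd3 had Trdc. Gzma, Gzmb, Prf1, Nkg7, Klra4, Klra8, Eomes, Tbx21 and Irf8 were among the higher genes, of which Gzma and Prf1 had chosen the NK cells. The lower genes held Il2ra (48.9 against 346 CPM), Cxcr6 (14.2 against 236 CPM) and the type 3 genes Il17a and Il23r, of which Il17a was at 0 in NK cells. Compared with ILC2, which were chosen for Gata3, Il1rl1 and Rora, 621 of 6637 genes (9.36%) were higher and 464 (6.99%) were lower. Eomes, Tbx21, Klre1 and Gzma were at 0 in the 114 ILC2. Against 3 counts over all ILC2, NK cells were at least 109-fold, 107-fold, 199.7-fold and 1289-fold higher, in that order. Gzma had chosen the NK cells, so its bound follows in part from the rule. The type 2 cytokines Il5 (0.331 against 689 CPM) and Il13 (0.331 against 549 CPM) and Areg (13.9 against 1046 CPM) were lower in NK cells. All 3 comparisons share the NK cells and are not independent of each other.

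Within the NK cells, Cd27 and Itgam, which mark stages from less to more mature NK cells in mice, divided the cells into classes. Cd27 without Itgam was found in 100 cells (36.5%, 31.0 to 42.3%), both in 25 (9.12%), Itgam without Cd27 in 75 (27.4%, 22.4 to 32.9%) and neither in 74 (27.0%). The first class ranged from 21.4 to 44.7% by library and the third from 19.6 to 36.1%. At 4000 UMIs per cell the shares were 27.0% and 26.2%, and at 2000 UMIs 14.3% and 14.0%, so the classes depend on depth, and the cells with Cd27 were deeper, with a median of 11306 UMIs against 6698. Of 6556 genes with at least 20 CPM in either class, 5.75% were higher with Itgam in all 6 libraries and 8.15% were higher with Cd27 in all 6. Of 9 genes of mature NK cells other than Itgam, 5 were higher with Itgam in all 6 libraries and none with Cd27, and of 8 genes of immature NK cells other than Cd27, 3 were higher with Cd27 in all 6 and none with Itgam. Gzma had 7560 CPM with Itgam and 2139 CPM with Cd27, and Prf1 377 and 131 CPM, Zeb2 640 and 172 CPM, Irf8 1210 and 597 CPM, Klrg1 117 and 22.9 CPM, and Cma1 286 and 10.7 CPM, each higher with Itgam in all 6 libraries. Ifng followed the same direction in all 6 libraries, with 228 against 75.6 CPM. Of these genes, Gzma and Prf1 had chosen the NK cells, so their levels follow in part from the rule. In the other direction, Emb had 180.5 CPM with Itgam and 854 CPM with Cd27, Ltb 14.8 and 122 CPM, and Thy1 68.9 and 234 CPM, each higher with Cd27 in all 6 libraries. Gzmb was higher with Itgam in 5 of 6 libraries, Xcl1, Ctla2a, Cd7, Kit and Il7r were higher with Cd27 in 5 of 6, Prdm1 and S1pr5 were higher with Itgam in 5 of 6 and Ly6c2 in 4 of 6, and Tcf7 was split evenly, with 3 libraries each way. The classes held 9 to 29 and 8 to 18 cells per library. Of the 45 dividing cells described below, 23 had Cd27 without Itgam and 4 had Itgam without Cd27, and they were not set apart here.

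**Figure D5:**
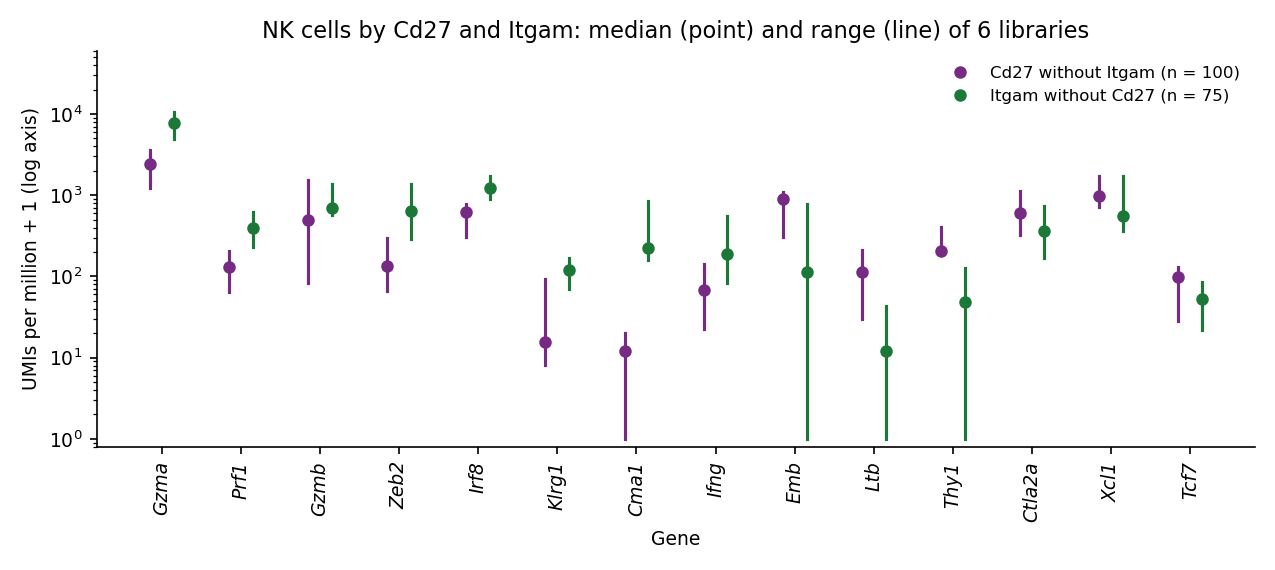
Levels of 14 genes in NK cells with Cd27 and without Itgam (purple, 100 cells) and with Itgam and without Cd27 (green, 75 cells), in CPM plus 1 on a log axis, as the median (point) and range (line) of the 6 libraries. Gzma, Prf1, Zeb2, Irf8, Klrg1, Cma1 and Ifng are higher with Itgam in all 6 libraries, and Emb, Ltb and Thy1 are higher with Cd27 in all 6. Gzma and Prf1 had chosen the NK cells.

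A further range of cells carried genes known from type 1 innate lymphoid cells (ILC1), tissue-resident relatives of NK cells that depend on T-bet more than on Eomes. Of 8 such genes (Itga1, Cxcr6, Il7r, Cd200r1, Tnfsf10, Zfp683, Tmem176a and Tmem176b), 183 NK cells had none, 53 had 1, 14 had 2 and 24 (8.76%) had 3 or more, with 6 cells at exactly 3. The 24 cells came from all 6 libraries, with 3 to 7 in each, and 21 of them met the rule with only 2 of its 4 genes. Eomes was found in 2 of the 24 (8.33%, 2.32 to 25.8%) and in 82.8% of the other 250, Klra8 in 1 and in 62.8%, and Klra4 in none and in 49.2%. Gzma was found in 4 of the 24 and in 93.2% of the others. Tbx21 was found in 83.3% and 82.8%. Ncr1 was found in 95.8% and 86.4%, but Ncr1 and Gzma are rule genes, so their shares in cells that met the rule with 2 genes follow in part from the rule. Xcl1 was found in all 24 cells at 2143 CPM, Rora in all 24 at 829 CPM against 105 CPM, Il2ra in 13 against 11.6% of the others, and Kit in 11 against 14.4%. The limit of 3 genes was chosen after the values were seen, and these cells are a range of the NK cells chosen here. Whether they form a separate type was not tested.

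Dividing cells were part of the population. Of the 9 cell cycle genes in the table, 45 NK cells (16.4%, 12.5 to 21.3%) had 5 or more, with 8.57 to 28.6% by library. Just below the limit were 5 cells with 4 genes, and just above it 6 cells with 5. Mki67 was found in 20.4% (10.3% at 2000 UMIs per cell) and Top2a in 23.4% of all NK cells. The 45 cells were deeper, with a median of 21761 UMIs against 7785, and 23 of them had Cd27 without Itgam and 4 had Itgam without Cd27. Their Gzma level was 2887 CPM against 4025 CPM in the rest, their Ccl5 level 1164 against 7446 CPM, and their Gzmb level 561 against 577 CPM. The limit of 5 genes was chosen after the values were seen.

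Genes of recent activation and of the interferon response are given beside the shares over all genes against CD8 T cells, 5.70% higher and 3.43% lower. Of 12 immediate early genes, 1 (Cd69, 92.9 against 254 CPM) was lower and none was higher, with a median log2 difference of 0.15, and Junb and Nr4a2 led with 1054 and 539 CPM in NK cells. Of 12 interferon response genes examined, 1 (Igtp) was lower and none higher, with a median of -0.52. For the pathway of PEPITEM, in which adiponectin acts through Adipor1 and Adipor2, Adipor1 was found in 52.9% of NK cells at 83.9 CPM, with 97.9, 93.2, 83.5, 93.6, 49.7 and 78.8 CPM in libraries 1 to 6, and Adipor2 in 54.4% at 96.5 CPM. Ywhaz, which encodes the 14-3-3ζ protein from which PEPITEM is cut, had 380 CPM, Cdh15, which encodes its proposed receptor on endothelium, was at 0, and the sphingosine kinase gene Sphk1 was at 0 with Sphk2 at 5.29 CPM. Of 6 genes of this list that could be examined, S1pr1 was lower than in CD8 T cells and none was higher.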

How the data were processed

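CD45+ cells of digested joints from 6 samples were analyzed. Per the labels and methods, the authors prepared Chromium 3′ libraries, aligned reads to mm10 with Cell Ranger, removed ambient RNA with SoupX and doublets with DoubletFinder, and filtered cells in Seurat. No doublet caller was run here. The authors deposited whole UMI counts of 20394 genes in 32953 cells, 47273569 to 123367661 UMIs per library. Some entries are written as 0, and 255 of 274 NK cells hold one for S100a8 or S100a9. Whether the removal of ambient RNA left these entries was not tested. Counts were summed per population and divided by its total (CPM). Intervals are Wilson 95% intervals for counting error only. Genes named are those of the lists, plus the 20 largest folds over all other cells and the 10 largest in each direction against CD8 T cells among genes with 50 CPM. The gene list of the table held 307 of 316 symbols chosen. The members and lists were chosen with earlier results of these data known, including the markers used to check the label. Cells were thinned without replacement to 2000 and 4000 UMIs. Alternatives were at least 3 rule genes, stricter Cd3 limits, other denominators, pseudocounts and filters, mean over cells, leaving out each library and, added after seeing the data, leaving out 14 cells. Python 3.11.15, numpy 2.4.6, scipy 1.17.1, pandas 2.3.3, matplotlib 3.10.9 and Biopython were used. Some genes of the lists are not reported here.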

Additional observations from a re-analysis of the deposited data

How the results depend on the processing

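The treatment behind each library number was unknown, libraries held 35 to 72 NK cells, and shares of cells with a UMI depend on depth. No paired analysis was possible because the library numbers are not linked to the replicate numbers of the vehicle and PEPITEM samples. Of 117 recomputed values, 70 stayed within the 95% counting interval of the reported value (for counts of genes, within 1.5 times; for the median, equal), and 47 did not. The cause was not tested. The share of NK cells (0.831%) was 0.698% with at least 3 rule genes, 1.48% among cells with little S100a8 and S100a9, 1.02% as the median library and 0.742 to 0.983% with each library left out. The summed level of the identity, Ly49, granule and chemokine lists (13293, 1665, 8489 and 8073 CPM) was 13884, 1836, 8919 and 8459 CPM with at least 3 rule genes, and 16798, 2150.4, 10351 and 11047 CPM as the mean over cells. Without Cd3 and Trac, the identity, Ly49 and chemokine lists had 13539, 1721 and 8242 CPM. In an alternative chosen after seeing the data, without the 14 cells rich in neutrophil or B cell genes, the 4 lists had 14049.6, 1748, 8913 and 8629.8 CPM. With each library left out they ranged from 12643 to 13766, 1606 to 1761, 8172 to 8839 and 7729 to 8437 CPM. The share with an Ifng UMI (39.8%) was 17.3% at 2000 and 21.9% at 4000 UMIs per cell and 36.0 to 42.7% with each library left out. Cd27 without Itgam (36.5%) was 14.3% and 27.0% at these depths and 35.1 to 39.2%, and Itgam without Cd27 (27.4%) was 14.0% at 2000 UMIs and 25.9 to 29.1%. The median of 3 Ly49 genes was 2 at both depths and 3 to 3 without each library. Genes higher than in CD8 T cells (367) were 135 at 100 CPM or more, 512 with no filter and 364 to 445 with each library left out. Genes lower (221) were 77 at 100 CPM or more, 342 with no filter and 215 to 252.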
